A study of Homo sapiens with 8 samples.

Results

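ATF4, CHOP (gene symbol DDIT3) and the factors they act with form the transcription arm of the cellular response to amino acid shortage, and 10 of its genes were described here. They were chosen by function, with earlier results of these data known. The list held the basic leucine zipper (bZIP) factors ATF4, ATF3, ATF5, CEBPB, CEBPG, DDIT3 and JDP2. It also held the pseudokinase TRIB3, the chromatin-associated stress protein NUPR1 and the glutathione-degrading enzyme CHAC1. The ribosome profiles of the series listed 12235 genes, of which 9 were members, since CHAC1 was listed in none of them. All 8 libraries came from HEK293T, a human embryonic kidney line, grown overnight with dialyzed serum in sufficient medium (Suff) or in medium without 1 amino acid, which was leucine (Leu-), arginine (Arg-) or methionine (Met-). One series of 4 libraries was prepared from cells given the elongation inhibitor cycloheximide (CHX) shortly before collection, and the other 4 were prepared without the drug. Ribosome-protected fragments were deposited as RPKM per transcript, the reads scaled to the length of the coding sequence and to the depth of the library, and the transcript with the highest RPKM stood for each gene. Each condition had 1 library per series, so no difference below has a replicate check, and the 95% intervals given are exact binomial (Clopper-Pearson) intervals on the read counts recovered from the RPKM values, which cover counting error only. Duplicate reads were removed only in the series without CHX. With CHX the intervals take any duplicates as separate reads, so they may be too narrow even for counting error.

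In the usual account, uncharged tRNA activates the kinase GCN2 when an amino acid runs short, and GCN2 phosphorylates the initiation factor eIF2. General initiation slows, while ribosomes reach the ATF4 coding sequence past its upstream open reading frames. ATF4 then pairs with C/EBP proteins on composite C/EBP-ATF elements in the promoters of transporter, synthetase and stress genes, and several of its targets, CHOP, ATF3 and TRIB3 among them, act back on ATF4 or on the same promoters. For HEK293T cells the paper reported more eIF2 phosphorylation without leucine or arginine, and no effect on it without methionine. Footprint density follows both the amount of an mRNA and the number of ribosomes on each mRNA. With footprints alone these cannot be told apart, nor can fewer expressing cells and less RNA per cell.

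The composite element is what links ATF4 to its targets, so promoters of the members were searched for it. RefSeq promoter windows of the build GRCh38.p14, running from 250 bases before to 50 bases after a start site, were found for 9 of the 10 members (not NUPR1). The element TGATGNAA, read on both strands, occurred in the windows of 4 of these 9 genes, against 4.46% of all 27305 genes with a window. A gene counted if any of its windows matched, and these 9 genes had 1 to 3 windows each. Of all 35116 windows, 3.62% held the element. The 4 matches are shown 5′ to 3′ on the gene's strand, with the element in capitals.
CEBPG, chr19:33374060-33374089, plus strand: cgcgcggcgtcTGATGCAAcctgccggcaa
JDP2, chr14:75427995-75428024, plus strand: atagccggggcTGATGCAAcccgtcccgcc
ATF3, chr1:212565205-212565234, plus strand: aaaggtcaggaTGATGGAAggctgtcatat
CHAC1, chr15:40953251-40953280, plus strand: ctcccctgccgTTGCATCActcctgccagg
The CEBPG and JDP2 matches lay 42 and 16 bases before the start site. ATF3 had TGATGGAA at 191 bases before its start, and in CHAC1 the element was on the opposite strand at 209 bases before the start. CEBPG, JDP2 and, on that opposite strand, CHAC1 shared the letters TGATGCAA. The AP-1 element TGACTCA occurred in the windows of ATF5 and DDIT3, 2 of 9 members against 6.05% of all genes (4.95% of windows). The palindrome TGACGTCA occurred in 0 of 9 against 2.25% (1.85% of windows). No match overlapped a match to another of these elements, and a match is a description of letters, not a bound site.
DDIT3, chr12:57520735-57520764, minus strand: gcgcgcgcaTGACTCAcccacctcctccgt
ATF5, chr19:49928707-49928736, plus strand: ggagagtgctgTGACTCAtgctggactcta

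The libraries differed in depth and in how low they listed. Reads assigned to coding sequences ranged from 1302523 to 3139745 without CHX and from 538222 (Met-) to 6434043 (Leu-) with it. The lowest listed read count was 5 in each library without CHX and 64 in each library with it, so a transcript that is not listed has an upper limit and not a value of 0. Members were listed 9 of 10 in every library without CHX, and 5 (Suff), 7 (Arg-), 8 (Leu-) and 2 (Met-) of 10 with it. Of 8 genes known from HEK293 cells, 6 to 7 were listed without CHX and 2 to 4 with it. VIM was the highest of them in all 8 libraries and TUBB3 was in none. COL1A1, a collagen gene of fibroblasts taken as a marker of other cells, was at 20.2 RPKM in Suff with CHX and not listed in the other 3 libraries with CHX, and without CHX it was listed in all 4 libraries, below 10 RPKM in each.

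Without CHX, every listed member had a higher RPKM in each starved library than in sufficient medium. After a minimum mean RPKM of 10, ATF5 and JDP2 dropped out of the Arg- and Leu- comparisons. Of the 7 members then compared, 7 were at least 2-fold higher in Arg-, where 8.32% of all mRNAs were, and 7 of 7 in Leu-, where 6.88% were. In Met- all 9 were at least 2-fold higher, against 20.2% of all mRNAs. DDIT3, TRIB3 and NUPR1, and in Met- also ATF5 and JDP2, were below 10 RPKM in Suff and met the minimum through the starved library in which they were high, so these counts and the medians of the members compared are descriptions only. The median log2((RPKM + 1) / (Suff RPKM + 1)) of the members was 3.16 in Arg-, 2.23 in Leu- and 1.67 in Met-, beside -0.02, 0.14 and 0.32 for all mRNAs. Centred on these medians of all mRNAs, 8 of 9 members stayed at least 2-fold higher in Met-, ATF3 being the exception. The 3 comparisons share the 1 sufficient library, so they are not independent of each other.

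**Figure D1:**
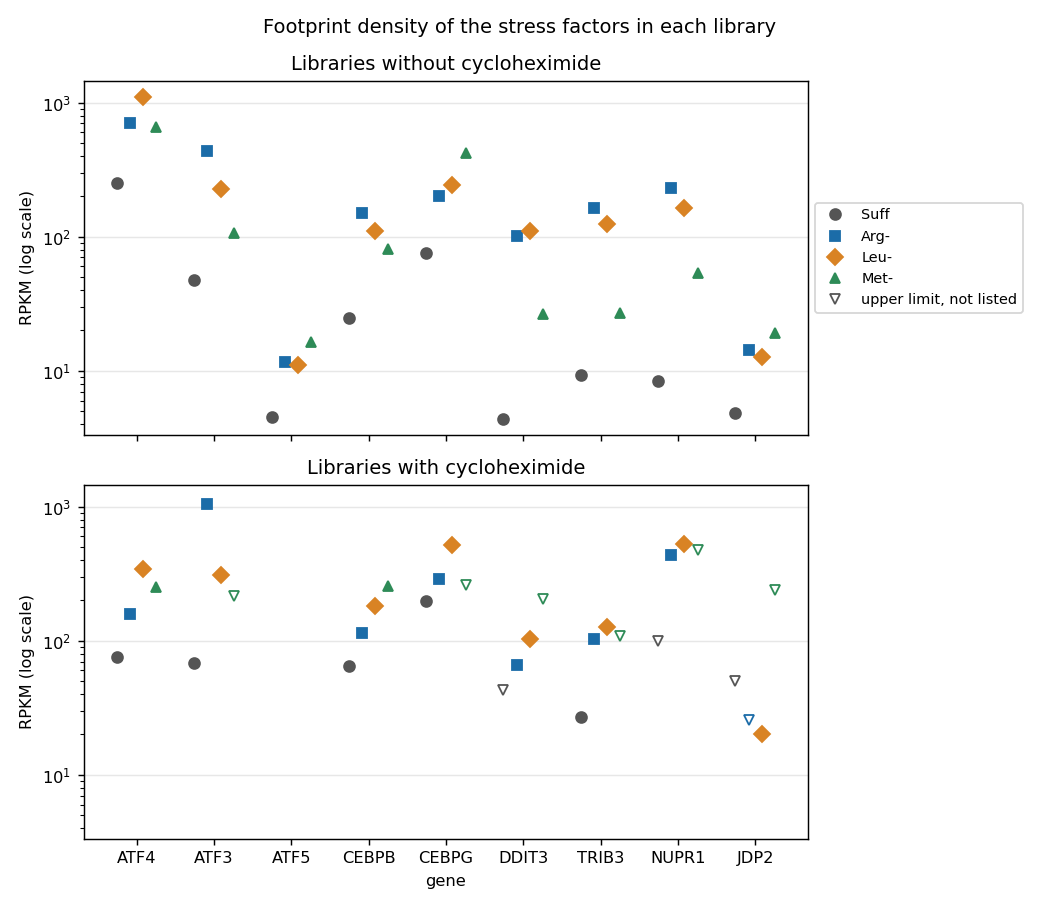
RPKM (log scale) of each listed member in the 4 libraries without CHX (top) and the 4 with CHX (bottom), with open triangles for the upper limit of a transcript that was not listed in that library but was in another of the series. Without CHX the sufficient library is the lowest for every member, and ATF4 is the highest member in each library.

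ATF4, the activator at the head of the pathway, had the highest RPKM of the members in all 4 libraries without CHX. It stood at 250.6 RPKM in Suff, 700.2 in Arg-, 1098 in Leu- and 661.6 in Met-. These were 2.79-fold (95% interval 2.55 to 3.06), 4.38-fold (4.03 to 4.76) and 2.64-fold (2.40 to 2.90) over Suff, from 831, 1191, 1735 and 910 reads. Leu- was thus highest, 1.57-fold (1.46 to 1.69) over Arg-, while Arg- over Met- was 1.06 (0.970 to 1.16) and these libraries did not differ beyond counting error. By RPKM, ATF4 was number 875 of 11437 genes in Suff, 230 of 10974 in Arg-, 186 of 10962 in Leu- and 245 of 10871 in Met-.

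ATF5, whose mRNA also carries upstream open reading frames that hold back its translation, was among the lowest members. Its RPKM was 4.50 in Suff, 11.7 in Arg-, 11.0 in Leu- and 16.3 in Met-, from 12, 16, 14 and 18 reads. All 3 starved libraries were above Suff, by 2.60-fold (1.15 to 6.02), 2.45-fold (1.05 to 5.79) and 3.62-fold (1.65 to 8.23), and the 3 did not differ from each other beyond counting error. ATF5 was listed in no library with CHX.

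CEBPB and CEBPG, C/EBP proteins that form dimers with ATF4, went in different orders across the starvations. CEBPB was at 24.9 RPKM in Suff, 148.9 in Arg-, 110.7 in Leu- and 81.4 in Met-, folds of 5.99 (4.65 to 7.80), 4.45 (3.40 to 5.87) and 3.27 (2.43 to 4.42). CEBPG was at 75.9 in Suff, 201.5 in Arg-, 243.3 in Leu- and 420.3 in Met-, folds of 2.65 (2.06 to 3.43), 3.20 (2.50 to 4.12) and 5.54 (4.40 to 7.0). CEBPB thus ran Arg-, Leu-, Met- from the highest down, with each step beyond counting error, whereas CEBPG was highest in Met-. Met- over Leu- was 1.73 (1.41 to 2.12) for CEBPG, and Leu- over Arg- was 1.21 (0.961 to 1.52), which includes 1. CEBPG in Met- ranked number 44 of the 7884 mRNAs listed in both libraries of that comparison.

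DDIT3, which encodes CHOP, the factor tied to cell death under lasting stress, was among the lowest members in sufficient medium, not apart from ATF5 and JDP2 by counting error. Its RPKM was 4.40 in Suff, 100.8 in Arg-, 109.6 in Leu- and 26.5 in Met-, from 8, 94, 95 and 20 reads. Arg- and Leu- were 22.9-fold (11.2 to 54.6) and 24.9-fold (12.1 to 59.4) over Suff, and Met- 6.03-fold (2.54 to 15.8). The Leu- log2 ratio of 4.36 was the highest of the 7558 mRNAs listed in both libraries, and its interval rests on 8 reads in Suff. DDIT3 met the minimum mean RPKM through the Leu- library, so this rank is a description only. Leu- over Arg- was 1.09 (0.809 to 1.46), so the order of these libraries was not resolved, and both were above Met-.

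TRIB3, a pseudokinase that binds ATF4 and CHOP and restrains them, was at 9.35 RPKM in Suff, 162.4 in Arg-, 125.2 in Leu- and 27.2 in Met-. The folds were 17.4 (12.2 to 25.5), 13.4 (9.30 to 19.8) and 2.91 (1.80 to 4.72). NUPR1, a small protein that partners with stress factors on chromatin, was at 8.41 in Suff, 229.5 in Arg-, 163.2 in Leu- and 53.2 in Met-, folds of 27.3 (13.4 to 64.8), 19.4 (9.35 to 46.6) and 6.33 (2.69 to 16.5). Both were highest in Arg- and lowest among the starved libraries in Met-, with every step beyond counting error. In Arg- the ratios of NUPR1, DDIT3 and TRIB3 were numbers 2, 3 and 4 of 7448 mRNAs, and in Leu- DDIT3, NUPR1 and TRIB3 were numbers 1, 2 and 3 of 7558. These genes met the minimum mean RPKM through the starved library, NUPR1 from 8 reads in Suff, so the ranks are descriptions only.

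ATF3, a stress-induced bZIP factor that can repress CHOP and other targets, followed the same order with a different spread. It was at 47.8 RPKM in Suff, 434.4 in Arg-, 227.6 in Leu- and 106.9 in Met-, folds of 9.08 (7.14 to 11.7), 4.76 (3.65 to 6.25) and 2.23 (1.61 to 3.09). JDP2, its close relative and a repressor of AP-1 sites, was at 4.85, 14.2, 12.7 and 19.0 RPKM from 8, 12, 10 and 13 reads. JDP2 was 2.92-fold and 3.92-fold over Suff in Arg- and Met-, with intervals above 1, and in Leu- the interval of its 2.62-fold ratio, 0.932 to 7.64, included 1. No 2 starved libraries differed beyond counting error for JDP2. CHAC1, an ATF4 and CHOP target that breaks down glutathione, was listed in no library under a GENCODE 44 identifier. Between 67 and 345 transcripts per library matched no such identifier, so whether CHAC1 was counted under another one is not known, and no level or limit is given for it.

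**Figure D2:**
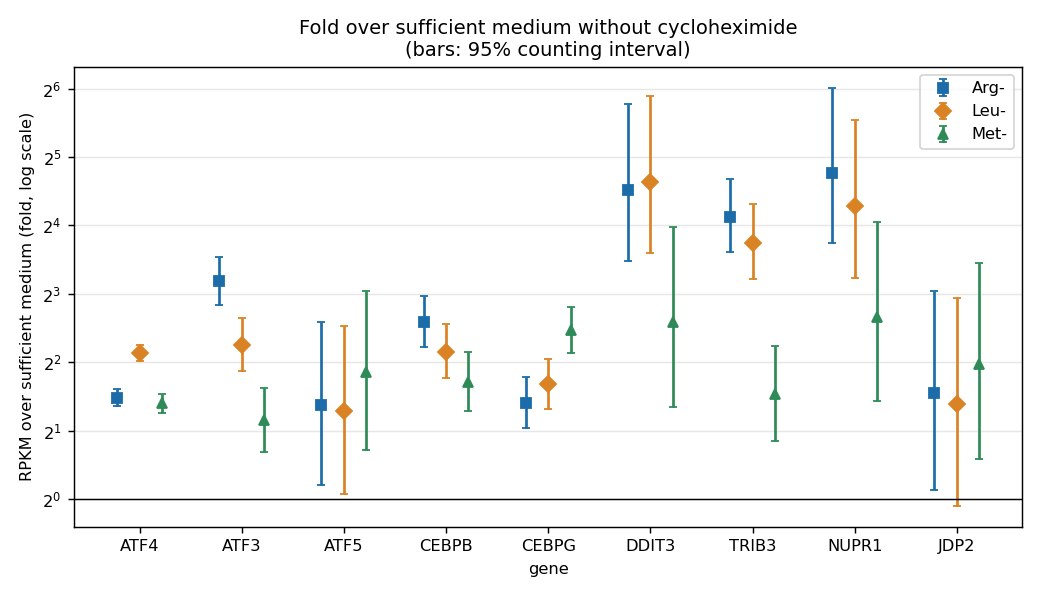
Fold of the RPKM over sufficient medium (log scale) for each listed member in the 3 starved libraries without CHX, with bars for the 95% counting interval. DDIT3, TRIB3 and NUPR1 have the largest folds of the members in Arg- and Leu-. The fold of CEBPG is larger in Met- than in Arg- or Leu-, and the interval of JDP2 in Leu- reaches below 1.

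Ordered by starvation without CHX, 4 members ran Arg-, Leu-, Met- from the highest RPKM down (ATF3, CEBPB, TRIB3 and NUPR1). ATF4 and DDIT3 ran Leu-, Arg-, Met-, ATF5 and JDP2 ran Met-, Arg-, Leu-, and CEBPG ran Met-, Leu-, Arg-. Compared directly, 0 of 9 members differed by at least 2-fold between Arg- and Leu-, where 1.33% of all mRNAs were that much higher in Arg- and 3.65% that much lower. Arg- exceeded Met- by at least 2-fold for 4 members against 3.75% of all mRNAs, and 1 was lower against 15.2%. The 4 were TRIB3 at 5.98 (4.30 to 8.50), NUPR1 at 4.31 (2.69 to 7.24), ATF3 at 4.06 (3.17 to 5.27) and DDIT3 at 3.80 (2.33 to 6.50), and the lower one was CEBPG, whose Met- over Arg- ratio was 2.09 (1.69 to 2.58). The 4 genes that were higher in Arg- were also at least 2-fold higher in Leu- than in Met-, by 4.61 (3.29 to 6.60) for TRIB3, 4.13 (2.53 to 7.07) for DDIT3, 3.07 (1.87 to 5.24) for NUPR1 and 2.13 (1.62 to 2.82) for ATF3. That was 4 of 9 members against 5.02% of all mRNAs, with 0 lower against 10.2%.

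Read against ATF4 in the same library without CHX, the members formed a different mixture in each medium. Since both levels are RPKM, per length, the ratio needs no scaling between libraries. ATF3 stood at 19.1% of ATF4 in Suff (95% interval 15.0 to 24.0), 62.0% in Arg- (55.1 to 69.7), 20.7% in Leu- (17.7 to 24.1) and 16.2% in Met- (12.6 to 20.4), so Arg- alone was apart. CEBPG stood at 30.3% in Suff (24.6 to 37.1), 28.8% in Arg- (24.1 to 34.2), 22.2% in Leu- (18.8 to 26.0) and 63.5% in Met-, so for this gene Met- was apart. DDIT3 was 1.76% of ATF4 in Suff, 14.4% in Arg-, 9.99% in Leu- and 4.01% in Met-. NUPR1 was 3.36%, 32.8%, 14.9% and 8.04%, and TRIB3 was 3.73%, 23.2%, 11.4% and 4.11%, in the same order of libraries. For TRIB3 the Suff interval (2.57 to 5.26) held the Met- value, so its higher RPKM in Met- went with a share of ATF4 that was within counting error of that in Suff. CEBPB was 9.92% in Suff, 21.3% in Arg-, 10.1% in Leu- and 12.3% in Met-, and ATF5 and JDP2 were at most 2.87% in any of the 4 libraries. With CHX, CEBPG was 258% of ATF4 in Suff, 183% in Arg- and 150% in Leu-. In Met- with CHX its upper limit was 260.1 RPKM beside 250.6 for ATF4, so its share was not highest in Met- in that series.

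**Figure D3:**
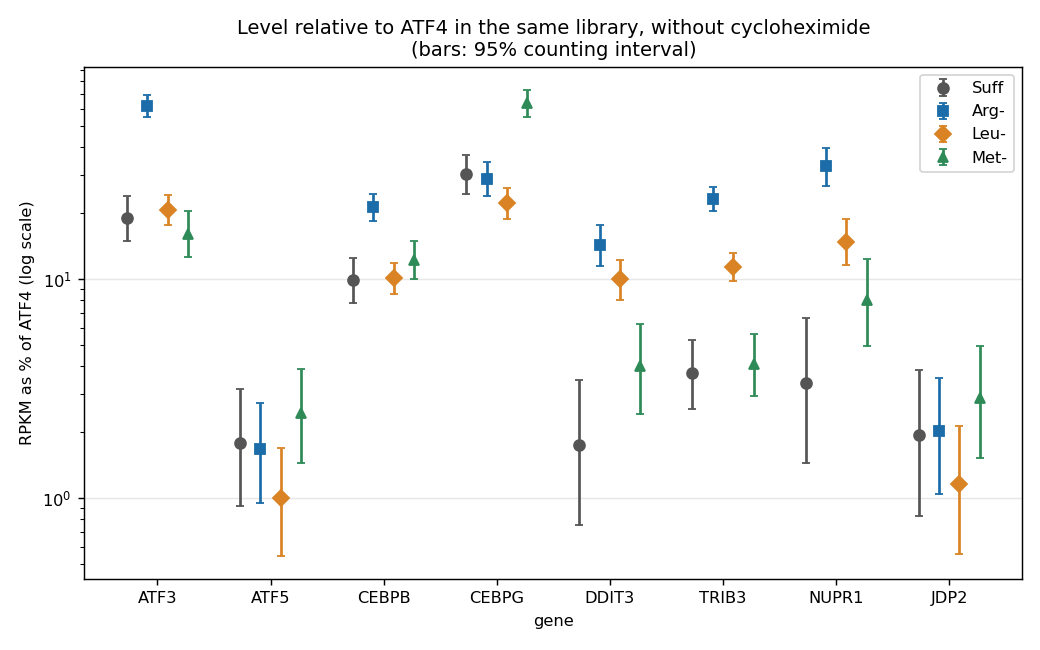
RPKM of each member as a percentage of the ATF4 RPKM in the same library without CHX (log scale), with bars for the 95% counting interval. ATF3 reaches 62.0% in Arg- and CEBPG 63.5% in Met-, while each is 16.2% to 30.3% in the other libraries.

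With CHX fewer members could be compared. Of 7 compared in Arg-, 4 were at least 2-fold higher than in Suff (ATF4, ATF3, TRIB3 and NUPR1), where 19.7% of all mRNAs were. In Leu- 7 of 8 were, against 13.0%, and in Met- 2 of 5 were (ATF4 and CEBPB), against 21.3%. Of the 4712 mRNAs behind that 21.3%, 2822 were listed in 1 of the libraries only. DDIT3 and NUPR1 in Arg- and Leu-, and JDP2 in Leu-, were not listed in Suff and met the minimum through the starved library. These counts are therefore descriptions only. A transcript not listed was held at its upper limit, so DDIT3 in Arg-, JDP2 in Leu-, and ATF3 and TRIB3 in Met- are undetermined and not counted as higher. CEBPB and CEBPG in Arg-, at 1.76-fold and 1.47-fold, were below 2-fold, and CEBPG in Met- had a log2 ratio of at most 0.41. No member listed in both libraries of a comparison was at least 2-fold lower, and for JDP2 in Leu- and for ATF3, CEBPG and TRIB3 in Met- the limits do not settle whether they were lower. The median log2 ratio of the members listed in both libraries was 1.04 in Arg- (5 members), 2.16 in Leu- (5) and 1.83 in Met- (2), beside -0.23, 0.02 and 0.89 for all mRNAs. The Met- comparison with CHX thus had a median of all mRNAs well above 0, in the library with the fewest reads. Relative to that median CEBPB alone stayed at least 2-fold higher.

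**Figure D4:**
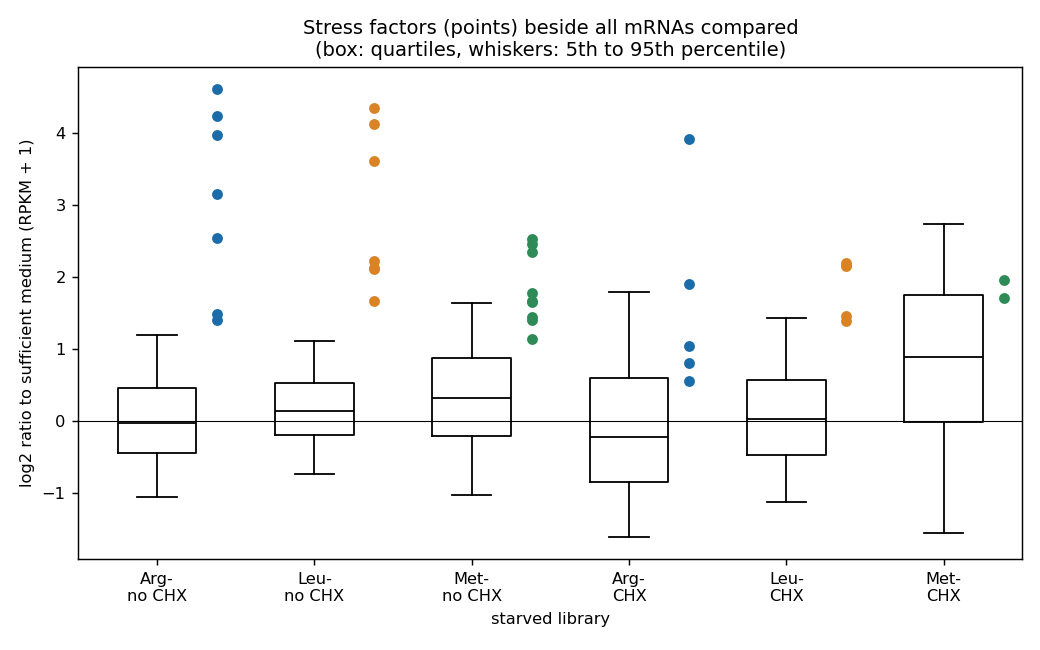
Log2((RPKM + 1) / (Suff RPKM + 1)) of the members listed in both libraries of each comparison (points) beside all mRNAs so compared (boxes with quartiles, whiskers at the 5th and 95th percentiles). In Arg- and Leu- without CHX the members lie above the whiskers, and in Met- with CHX the box itself is centred on 0.89.

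ATF4 with CHX was at 76.0 RPKM in Suff, 157.3 in Arg-, 342.1 in Leu- and 250.6 in Met-, folds of 2.07 (1.77 to 2.42), 4.50 (3.90 to 5.22) and 3.30 (2.64 to 4.10). Leu- was again the highest, 1.37-fold (1.15 to 1.63) over Met-, and Met- was 1.59-fold (1.32 to 1.90) over Arg-. CEBPG was the highest member in Suff at 196.2 RPKM and stood at 287.9 in Arg- and 513.6 in Leu-, and in Met- it was not listed, with an upper limit of 260.1 RPKM. That limit lay below its Arg- and Leu- values, so CEBPG was not highest in Met- with CHX, unlike without it. CEBPB was at 65.3 in Suff, 114.7 in Arg-, 180.2 in Leu- and 256.7 in Met-. Its order was therefore the opposite of that without CHX, with Met- over Leu- at 1.42 (1.19 to 1.70) and Leu- over Arg- at 1.57 (1.42 to 1.74).

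ATF3 was the highest member in Arg- with CHX. It was at 68.3 RPKM in Suff, 1045 in Arg- and 310.3 in Leu-, folds of 15.3 (12.5 to 19.0) and 4.54 (3.68 to 5.66). In Arg- with CHX it was 664% of ATF4 (615 to 719) and number 2 of 5074 mRNAs by its ratio to Suff. TRIB3 was at 26.9 RPKM in Suff, 103.7 in Arg- and 126.9 in Leu-, folds of 3.85 (3.02 to 4.98) and 4.72 (3.72 to 6.06). DDIT3 and NUPR1 were not listed in Suff, so their folds are lower bounds against the level that 63 reads would give there. DDIT3 was at least 1.55-fold higher in Arg- (66.2 RPKM) and at least 2.41-fold higher in Leu- (103.1 RPKM), and NUPR1 at least 4.34-fold higher in Arg- (434.1) and at least 5.25-fold higher in Leu- (525.0). JDP2 was listed in Leu- alone, at 20.3 RPKM and 64 reads, the lowest count listed. None of ATF3, DDIT3, TRIB3, NUPR1 and JDP2 was listed in Met- with CHX, where their upper limits were 215.6, 203.2, 109.0, 475.8 and 239.4 RPKM.

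Arg- against Leu- is the pair of starved libraries with the most members listed in both series. With CHX, ATF3 was 3.37-fold (3.14 to 3.62) higher in Arg- and ATF4 was 2.17-fold (2.01 to 2.36) higher in Leu-, so of the 7 members listed in both libraries 1 was at least 2-fold higher in Arg- against 4.09% of all mRNAs and 1 was lower against 5.69%. CEBPG at 1.78 (1.63 to 1.96), DDIT3 at 1.56 (1.31 to 1.86), TRIB3 at 1.22 (1.10 to 1.36) and NUPR1 at 1.21 (1.08 to 1.35) were higher in Leu- than in Arg-. CEBPB, TRIB3 and NUPR1 thus lay on the Leu- side with CHX and on the Arg- side without it, while ATF3 stayed on the Arg- side and ATF4 on the Leu- side in both. The series differed in the drug, in the coding length used for RPKM, in the lowest count listed, in the removal of duplicate reads and in the transcript listed for DDIT3, TRIB3, NUPR1 and JDP2, and these cannot be told apart.

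**Figure D5:**
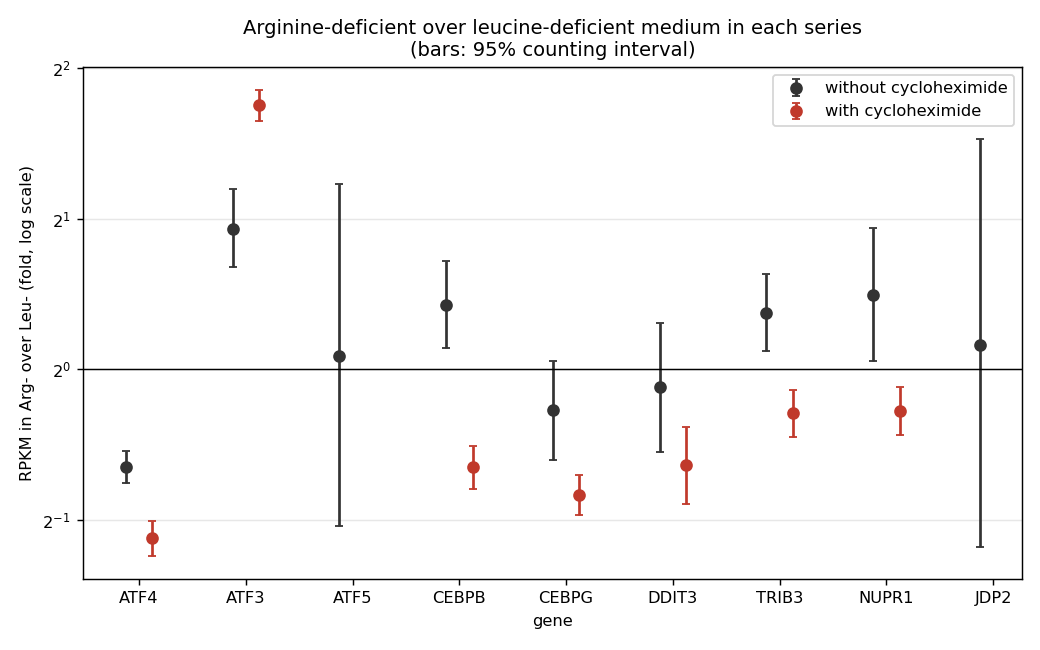
RPKM in Arg- over RPKM in Leu- (log scale) for each member listed in both libraries, without CHX (black) and with CHX (red), with bars for the 95% counting interval. ATF3 lies above 1 and ATF4 below 1 in both series, and CEBPB, TRIB3 and NUPR1 lie on opposite sides.

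The other genes of the pathway were counted in the same way, and their counts stand beside the shares of all mRNAs at least 2-fold higher, which were 8.32% in Arg-, 6.88% in Leu- and 20.2% in Met- without CHX, and 19.7%, 13.0% and 21.3% with it. Some of these genes, SLC7A11 and PPP1R15A among them, were below 10 RPKM or not listed in Suff. They met the minimum through the starved library in which they were high, so the counts of the lists are descriptions only. Of 26 known ATF4 targets outside the members, 18 of 22 compared were at least 2-fold higher in Arg- without CHX, 18 of 22 in Leu- and 15 of 21 in Met-, and 17 of 22, 18 of 21 and 13 of 17 with CHX, with 0 lower in each as far as the limits of unlisted transcripts show. ASNS, the asparagine synthetase, was at 68.0 RPKM in Suff, 689.0 in Arg-, 606.7 in Leu- and 392.1 in Met- without CHX, and SLC7A11, the cystine transporter, at 9.52, 101.8, 93.6 and 81.6. These had the highest mean log2 ratios of the list, and the folate enzyme MTHFD2 (364.2, 442.2, 619.9 and 533.7 RPKM) and the proline enzyme PYCR1 (191.8, 275.5, 271.5 and 236.7) the lowest.

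Upstream of ATF4, the list of 14 eIF2 kinases, eIF2 and eIF2B subunits and phosphatase subunits had 1 of 11 compared at least 2-fold higher in each starved library without CHX, which is near the share of all mRNAs in Arg- and Leu- (8.32% and 6.88%) and below it in Met- (20.2%). That gene was PPP1R15A (GADD34), the stress-induced subunit that directs eIF2 dephosphorylation and is also a CHOP target, at 3.15 RPKM in Suff, 31.3 in Arg-, 17.2 in Leu- and 21.6 in Met-. PPP1R15A met the minimum mean RPKM through the starved libraries. EIF2S1, the phosphorylated subunit itself, was at 196.5 RPKM in Suff, 128.4 in Arg-, 168.4 in Leu- and 92.3 in Met- without CHX. It was thus below Suff in each starved library, and at least 2-fold lower in Met- alone. With CHX 4 of 11 were higher in Arg-, 1 of 10 in Leu- and 0 of 9 in Met-, against 19.7%, 13.0% and 21.3% of all mRNAs, and EIF2S1 was among those higher in Arg- and Leu-, at 161.8 and 212.3 RPKM against 38.9 in Suff.

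Of 5 CHOP targets, 2, 3 and 2 were at least 2-fold higher in Arg-, Leu- and Met- without CHX, and 0 of 4, 2 of 3 and 1 of 2 with it, numbers too small to set against the shares of all mRNAs. BBC3, which encodes the cell death protein PUMA, was at 13.4, 34.8, 49.3 and 30.3 RPKM in Suff, Arg-, Leu- and Met- without CHX, whereas the oxidase ERO1A was at 60.7, 47.2, 63.2 and 75.8. Among 41 bZIP factors outside the members, 6 of 21 compared were higher in Arg-, 3 of 20 in Leu- and 11 of 23 in Met- without CHX, against 8.32%, 6.88% and 20.2% of all mRNAs, and 6 of 15, 3 of 16 and 7 of 11 with it, against 19.7%, 13.0% and 21.3%. JUN, an AP-1 subunit, had the highest mean ratio of that list, at 99.8, 638.3, 237.4 and 426.3 RPKM, and CEBPA was the lone factor that the values or limits put at least 2-fold lower, in Arg- with CHX. Of the 4 paralogs TRIB1, TRIB2, CHAC2 and NUPR2, the 2 listed were TRIB1, at 41.3, 36.1, 24.5 and 94.7 RPKM without CHX, and CHAC2, at 79.2, 47.0, 44.5 and 62.2. TRIB1 was highest in Met-, the starved library in which TRIB3 was lowest.

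The members also had short coding sequences. Their listed transcripts ranged from 82 codons (NUPR1) to 385 (TRIB3), all under the median of 477 codons over 11062 listed transcripts. Arginine codons made up from 3.13% of the sequence in ATF4 to 11.0% in NUPR1 (median of all 5.63%), leucine codons from 7.32% in NUPR1 to 15.6% in ATF5 (9.76%), and methionine codons from 1.16% in CEBPB to 3.45% in JDP2 (2.13%). The NUPR1 values belong to the transcript listed with CHX, and the one listed without it had 100 codons and 9% arginine. ATF4, the member with the lowest arginine share, was 2.17-fold higher in Leu- than in Arg- with CHX and 1.57-fold higher without. TRIB3 had its highest RPKM in Arg- without CHX, from a transcript with 8.83% arginine and 14.0% leucine. With CHX it was highest in Leu-, from a transcript with 9.22% and 14.2%. Whether codon content bears on these ratios was not tested.

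Over the 5 ratios to sufficient medium that could be formed for 5 members (all but Met- with CHX), the genes nearest the members' median profile were sought among 4691 genes by Euclidean distance in log2 units. The 5 nearest had distances of 1.29 to 1.59. They were GADD45A, a growth arrest gene, GARS1, the glycyl-tRNA synthetase, PMAIP1, which encodes the cell death protein NOXA, and 2 entries without a symbol. GADD45A had log2 ratios of 2.25, 1.95 and 0.66 in Arg-, Leu- and Met- without CHX and of 1.84 and 1.53 in Arg- and Leu- with it, where the members' medians were 2.54, 2.13, 1.44, 1.04 and 2.16.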

How the data were processed

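The authors trimmed the footprint reads, aligned them with Bowtie to a human transcriptome of GRCh38 (the submitters' processing notes also name cutadapt, no versions) and deposited 1 table of RPKM per transcript for each of the 8 libraries, with duplicate reads removed in the series without CHX. Transcripts were matched to GENCODE 44 symbols (96.7 to 97.1% matched) and the highest transcript stood for a gene. Whole reads were recovered from RPKM and coding length, and 97.2 to 97.4% of the values lay within 0.01 of a whole read. An mRNA was compared when the mean RPKM of both libraries reached 10. A transcript not listed was held at 1 read below the lowest listed count, or given as a limit. Log2 ratios used a pseudocount of 1, which understates the ratios of low genes, while folds and their intervals used RPKM and reads without one. With 1 library per condition no test was run, and the labels name no replicates. Other genes given with values from the lists are among the 2 highest and 2 lowest of each list by mean log2 ratio without CHX, or at least 2-fold lower. Not all genes that met this rule are named. The markers and the genes nearest the members' median profile were named separately. The members and lists were chosen with earlier results of these data known. Python 3.11.15, numpy 2.4.6, pandas 2.3.3 and scipy 1.17.1 were used, and the computation was tested on simulated data. The alternatives tried were another pseudocount (0.1), unlisted transcripts at 0, 1 transcript per gene in every library, transcripts summed, centred ratios, other thresholds (1.5-fold and 4-fold) and other minimums (0 and 50). One marker of other cells is not reported here.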

Additional observations from a re-analysis of the deposited data

Results flagged for a closer look

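In 5 comparisons between starved libraries, a member with listed values lay on opposite sides of 0 with and without CHX. The scale was log2 of RPKM + 1, and both counting intervals of the fold were away from 1. Arg- over Leu- was -0.65 with CHX and 0.42 without for CEBPB, -0.29 and 0.37 for TRIB3, and -0.27 and 0.49 for NUPR1. CEBPB also turned for Arg- over Met-, at -1.15 with CHX and 0.86 without, and for Leu- over Met-, at -0.51 and 0.44. CEBPG, not listed in Met- with CHX, is outside these 5 comparisons but also turned by its limit. Its Arg- over Met- ratio was at least 0.15 with CHX and -1.06 without, and Leu- over Met- at least 0.98 and -0.79. No counting interval was formed for the limit. With 1 library per condition, the difference between the series was not tested.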

How the results depend on the processing

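No paired analysis was possible because each condition had 1 library per series and the labels carry no replicate numbers. Of 47 log2 ratios of members to Suff, bounds included, 47 kept their direction and moved by less than counting error with a pseudocount of 0.1, with the same transcript in every library, or with transcripts summed, and 38 did when centred on the median. Setting unlisted transcripts to 0, although up to 63 reads could go unlisted with CHX, was counted as moving 5 and turning 3. The 3 were JDP2 in Leu- with CHX, to 4.42, and ATF3 and TRIB3 in Met- with CHX, to -6.12 and -4.80. Among the 5 counted as moved, CEBPG in Met- with CHX also changed sign, from a bound of at most 0.41 to -7.62. Setting them to 0 also took the members' median with CHX to 1.91 in Arg- and -4.80 in Met-. With no minimum RPKM the Arg- median without CHX was 2.54 over 9 members. A minimum of 50 left 4 members at least 2-fold higher in Met- without CHX. At least 4-fold higher were 3 in Met- without CHX, and 2, 4 and 0 in Arg-, Leu- and Met- with it. Centring left 1 member at least 2-fold higher in Met- with CHX, and the median of the 2 members listed in both libraries was then 0.94.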
